A study of Mus musculus with 8 samples.

Results

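The genes described are 39 genes of glucose use in the heart: glucose uptake, glycolysis, lactate exchange, entry of pyruvate into the mitochondrion, glycogen and the pentose phosphate pathway. They were chosen by symbol from the 27304 genes of the deposited count table, and each symbol matched 1 row. The series holds bulk RNA sequencing of the heart in male mice of the inbred strain 129/Sv. 4 libraries came from mice fed a diet with 0.15% adenine for 13 weeks, which have chronic kidney disease, and 4 from mice fed a standard diet for the same time. Mice turn dietary adenine into crystals that lodge in the kidney tubules. The hearts were rinsed, snap-frozen after explantation and stored cold, and the labels do not say which chambers were taken or that each library came from its own animal, so p-values measure the spread between these libraries, which may be technical.

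The heart draws most of its energy from fatty acids, and glucose and lactate make up much of the rest. Glucose enters through the transporters GLUT1 and GLUT4, is phosphorylated by hexokinases, and is split to pyruvate in a chain whose committed step is catalysed by phosphofructokinase. Pyruvate is reduced to lactate or oxidised by the pyruvate dehydrogenase complex, while side branches store glucose as glycogen or pass it to the pentose phosphate pathway, which makes NADPH and ribose. For some steps, such as phosphoglycerate mutase and enolase, an isozyme is typical of striated muscle and another of most other cells.

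Adenine libraries held 15626620 to 29831706 counts and control libraries 24107554 to 33886385. Of the 20093 genes tested, 8 (0.0398%) were called in edgeR's quasi-likelihood test at an adjusted p under 0.05, all of them higher, and none of the 39 genes was among them. The 8 cardiomyocyte markers summed to 31414 to 51021 CPM (read counts scaled to library size with TMM factors) in adenine libraries and 42579 to 57092 CPM in controls, with no marker at 0. Adenine 3 stood apart from the other libraries of its diet. Its 8 macrophage markers summed to 2606 CPM, where the remaining adenine libraries had 239.6 to 416 CPM and controls 276 to 507 CPM. Lyz2 gave 2065 CPM of that sum, and Cd163, at 22.8 CPM, lay below control 1. Gpnmb and Itgax were higher in every adenine library than in every control. They had 10.2 to 194 and 4.19 to 35.2 CPM, against 4.09 to 5.14 and 0.915 to 1.87 CPM. The cardiomyocyte sum of adenine 3 was the lowest of all 8 libraries. Its Myh6 was 7094 CPM, against 15483 to 20491 CPM elsewhere. Actc1, Ryr2, Tnni3 and Ttn were also lowest there, and Tnnt2, Mb and Pln were not. The 7 fibroblast markers summed to 2115 CPM in adenine 3, beyond 635 to 976 CPM in adenine 1, 2 and 4 and 1148 to 1746 CPM in controls. The collagen genes Col1a1 (433 CPM) and Col1a2 (958 CPM) made up most of that sum. Pdgfra, Tcf21, Dpt and Dcn, 4 of the 7 markers, lay below every control in all 4 adenine libraries, against 3.84% of all tested genes. In adenine 3 they had 31.2, 9.20, 80.45 and 489 CPM. Sums of 4 neutrophil and 4 lymphocyte markers were higher in every adenine library than in every control. Adenine libraries had 6.62 to 12.5 and 11.4 to 20.1 CPM, and controls 3.19 to 5.96 and 5.32 to 7.53 CPM. Of the single neutrophil and lymphocyte genes, only Csf3r, Mmp8 and Il7r lay higher in every adenine library. S100a8 was lowest of the 8 libraries in adenine 4, at 0.187 CPM, and Il7r gave 15.15 CPM of the lymphocyte sum in adenine 3. The part of neutrophils and lymphocytes in the results below was not tested. Of 785 tested receptor genes of smell (the Olfr and Vmn families), known from sensory neurons, 767 had a log2 fold change above 0 and 0 were called in edgeR, and the part of such low-level reads in the results was not tested.

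The low-count filter removed none of the 39 genes, and 0 of them were called in edgeR, in DESeq2 or in limma-voom. At an unadjusted p under 0.05, 2 were higher on the adenine diet, Pfkfb3 and Slc16a3, and 0 were lower, whereas 17.5% of all tested genes were past that limit in either direction, 10.9% higher and 6.63% lower. In 0 of the 39 genes did the libraries of the diets fail to overlap, against 7.29% of all tested genes, 3.45% higher and 3.84% lower. The log2 fold changes, adenine minus control, ran from -0.48 to 0.80 with a median of -0.06, and the median over all tested genes was 0.05. Abundant transcripts lay lower as a whole: the 21 members above 100 CPM had a median of -0.20, and the 1002 genes above 100 CPM had -0.17. For 35 members the 95% interval of the log2 fold change lay within 1 log2 unit, a change by a factor of 2, on either side of 0. The 4 exceptions were Pfkfb3, Aldoc, Slc16a3 and Pdha1. Of all tested genes 55.8% had such an interval, but the members were more abundant. Above 10 CPM lay 33 of the 39 members, against 8428 of the 20093 tested genes. The median SE was 0.20 for the members and 0.25 for all tested genes. The part of abundance in the narrower intervals was not tested. Of the 39 values 14 were above and 25 below 0, where 54.2% of all tested genes were above 0, and with upper-quartile scaling, which lifted the median of all genes by 0.15, 23 were above and 16 below.

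**Figure D1:**
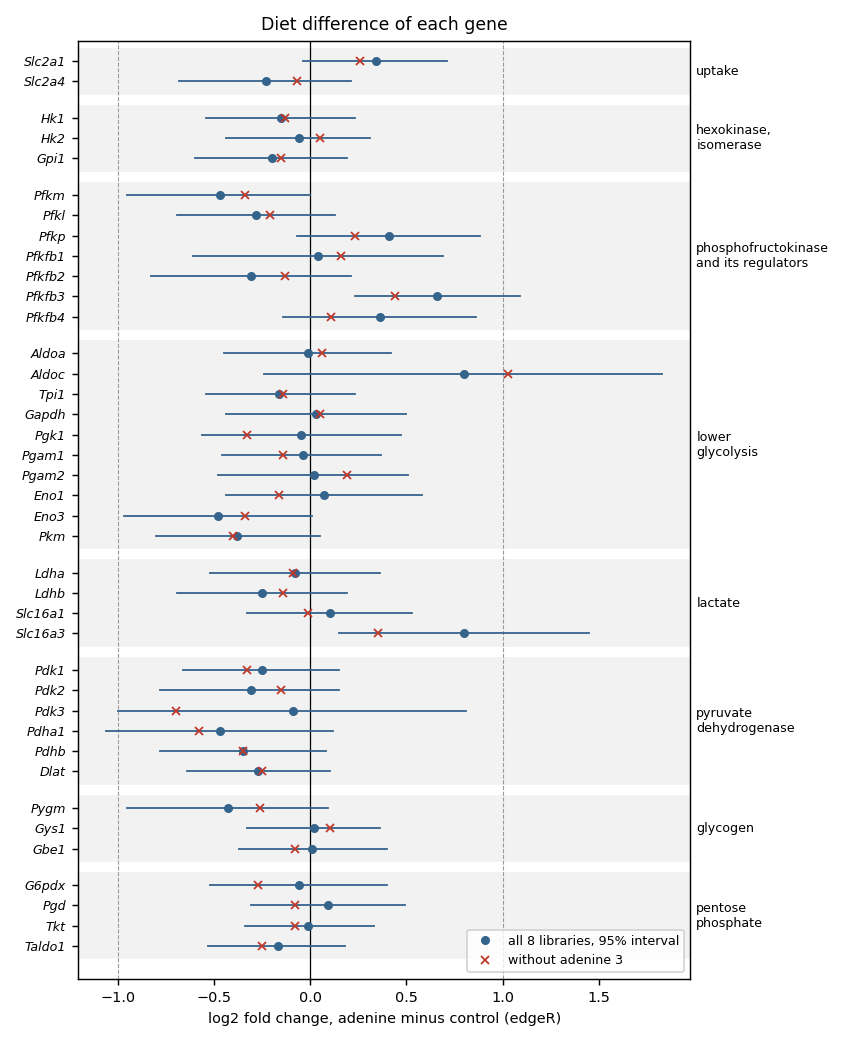
Log2 fold change of each of the 39 genes, adenine minus control, with its 95% interval from edgeR (points and lines), and the value without adenine 3 (crosses). Genes run down the page by branch, and dashed lines mark a change of 1 log2 unit. Every interval except those of Pfkfb3 and Slc16a3 reaches 0, and the crosses lie closer to 0 than the points for Slc16a3, Pfkfb3 and Slc2a4.

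The levels of the members, counted per kilobase of exon so that genes can be compared, spanned from Aldoc at 0.420 ± 0.219 CPM per kb in adenine and 0.239 ± 0.0842 CPM per kb in control libraries to levels such as those of Aldoa at 703.9 ± 145 and 711 ± 18.6 CPM per kb (SD, n = 4 each, here and below). Gapdh, Ldhb, Pgam2 and Eno3 had levels near that of Aldoa, with means of 504 to 688 CPM per kb in adenine and 535 to 727 CPM per kb in control libraries, where Ldhb had the highest mean. The ranges of mean ± SD of these genes and Aldoa overlapped in adenine libraries, and in controls that of Pgam2 lay below the others. The striated muscle isozyme was the more abundant partner per kilobase in each library for phosphofructokinase, phosphoglycerate mutase and enolase. In the pentose phosphate branch G6pdx, Pgd and Tkt stayed between 3.09 and 5.43 CPM per kb in adenine and between 3.23 and 5.11 CPM per kb in control libraries. Taldo1, of the same branch, lay higher, at 28.7 ± 3.82 and 32.3 ± 6.01 CPM per kb. Exon length was taken from all annotated exons of a gene, so long alternative exons, as in Pfkp, lower its level per kilobase.

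**Figure D2:**
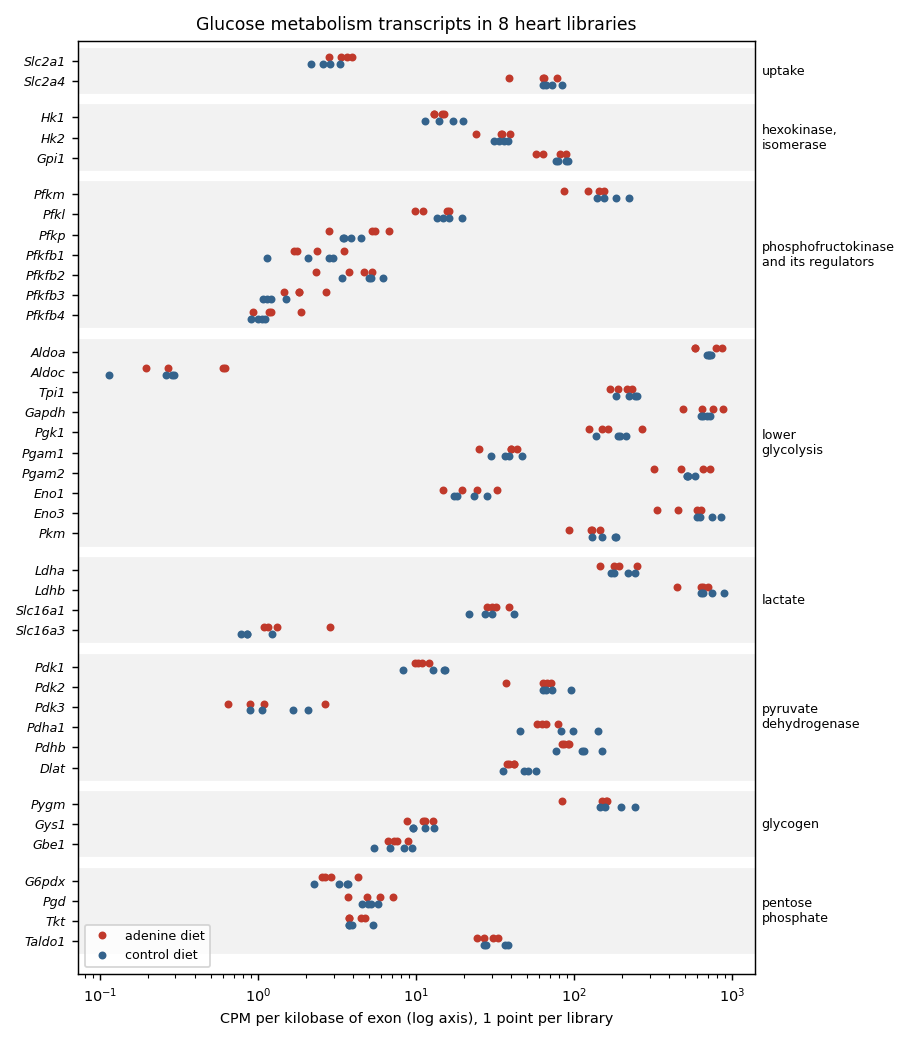
CPM per kilobase of exon for each gene on a log axis, 1 point per library, with the adenine libraries (red) above the control libraries (blue) in each row. The levels run over more than 3 orders of magnitude from Aldoc to Aldoa, and the colours overlap in every row.

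Glucose uptake rests on Slc2a4, which encodes GLUT4, the insulin-responsive transporter of muscle and fat, and on Slc2a1, which encodes GLUT1, the basal transporter of most cells. Slc2a4 had 270.0, 221, 134 and 224 CPM in adenine 1 to 4, against 253, 291, 231 and 221 CPM in control 1 to 4. Adenine 3 was the lowest library, and the other adenine libraries lay within the control range. Its log2 fold change was -0.23 (SE 0.21, adjusted p = 0.507), or -0.07 without adenine 3. Slc2a1 had 12.8, 9.84, 13.8 and 11.8 CPM in adenine libraries and 10.1, 11.6, 9.05 and 7.53 CPM in controls, with a log2 fold change of 0.34 (SE 0.17, adjusted p = 0.315). The adenine libraries with the highest Slc2a1 lay above all controls, and adenine 2 lay among them.

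The ratio of Slc2a1 to Slc2a4 within a library does not depend on the scaling of libraries. Its log2 value was -4.40, -4.49, -3.28 and -4.25 in adenine 1 to 4, against -4.65, -4.66, -4.67 and -4.88 in control 1 to 4. All 4 adenine libraries lay above all 4 controls, with a mean difference of 0.61, or 0.34 without adenine 3. Per kilobase, Slc2a1 made up 5.74 ± 2.38% of both transporters in adenine and 3.65 ± 0.253% in control libraries. The exact two-sided permutation p was 0.0286, the smallest that 70 assignments allow. After Benjamini-Hochberg adjustment over the 10 isozyme pairs compared it was 0.286, the value any pair alone at that smallest p gets. The difference did not pass, and with 4 libraries per diet a single separated pair could not pass this adjustment. In bulk tissue a change in the number of cells of a type and a change in the RNA of each cell cannot be told apart.

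Hexokinase traps glucose in the cell as glucose 6-phosphate, and Gpi1 encodes the isomerase of the next step. Hk2, the isozyme typical of muscle, had 198 ± 37.9 CPM in adenine and 207 ± 17.7 CPM in control libraries. Hk1, the isozyme of most cells, had 119 ± 9.04 and 132 ± 31.2 CPM, and Gpi1 had 469.5 ± 96.2 and 541 ± 47.5 CPM. The 3 log2 fold changes lay between -0.20 and -0.06, with SEs of 0.17 to 0.18 and adjusted p-values of 0.511 to 0.837. The log2 ratio of Hk1 to Hk2 averaged -0.72 ± 0.25 in adenine and -0.67 ± 0.37 in control libraries, with a mean difference of -0.04 (exact permutation p = 0.943).

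Phosphofructokinase is built from the subunits Pfkm (muscle), Pfkl (liver) and Pfkp (platelet). Pfkm had 515, 407, 287 and 476.5 CPM in adenine 1 to 4, against 612, 747, 514 and 466 CPM in control 1 to 4. The lowest value was in adenine 3 and the highest in control 2, and adenine 1 and adenine 4 lay within the control range. Pfkp had 70.3, 37.6, 90.3 and 73.8 CPM in adenine and 51.7, 47.1, 60.2 and 46.3 CPM in control libraries, so 3 adenine libraries lay above and 1 below all controls. Neither passed: the log2 fold change of Pfkm was -0.47 (SE 0.22, adjusted p = 0.287), that of Pfkp 0.41 (SE 0.22, adjusted p = 0.329; 0.23 without adenine 3) and that of Pfkl -0.28 (SE 0.19, adjusted p = 0.401). Of the 3 subunits per kilobase, Pfkm made up 87.1 ± 3.20% in adenine and 89.6 ± 1.91% in control libraries, and Pfkp 3.73 ± 1.92% and 2.02 ± 0.480%. In adenine 3 alone the shares were 82.8% for Pfkm and 6.49% for Pfkp. Exons of Pfkm share 10.2% of their bases with Gm26513 on the same strand, so reads there could be counted to either gene.

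The 4 PFKFB enzymes make and break fructose 2,6-bisphosphate, the strongest activator of phosphofructokinase. Pfkfb3 is known as the form with the highest kinase activity and as a gene induced by hypoxia, and Pfkfb2 as the heart form. Pfkfb3 (ENSMUSG00000026773, GRCm38 chromosome 2, 11471433 to 11554077) had the lowest p of the 39 genes. It had 13.7, 13.8, 20.4 and 10.95 CPM in adenine 1 to 4, against 9.09, 11.4, 8.64 and 8.18 CPM in control 1 to 4. 3 adenine libraries lay above all controls, and adenine 4 lay below control 2. The log2 fold change was 0.66 (SE 0.20, 95% interval 0.23 to 1.09) with an unadjusted p of 0.00559 and an adjusted p of 0.222 in edgeR, so it did not pass. Without adenine 3 it was 0.44 (adjusted p = 0.117), and over all 8 left-out libraries it stayed between 0.44 and 0.80. Pfkfb2 had 29.1 ± 9.36 CPM in adenine and 36.0 ± 8.34 CPM in control libraries, with a log2 fold change of -0.31 (SE 0.24, adjusted p = 0.451), or -0.13 without adenine 3. Exons of Pfkfb2 share 17.4% of their bases with Gm29427 on the same strand. Pfkfb4 had a log2 fold change of 0.36 (SE 0.23), or 0.11 without adenine 3, and Pfkfb1 had 0.04 (SE 0.30), or 0.16 without it. Within the family Pfkfb3 held 20.7 ± 7.35% per kilobase in adenine and 13.0 ± 1.55% in control libraries, where Pfkfb2 held 41.4 ± 11.8% and 52.2 ± 10.3%.

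The start-site windows of Pfkfb3 and of Slc16a3, the members past the unadjusted limit, are shown because both genes are known as targets of hypoxia-inducible factors. These factors bind the cores ACGTG and GCGTG, which are in capitals below where they occur on either strand. The windows are from RefSeq on GRCm38.p6 and run from 250 bases before to 50 bases after the start, written 5′ to 3′ on the gene's strand. The first of Pfkfb3 is chr2:11553880-11554179 and the second chr2:11502041-11502340, both on the minus strand, and that of Slc16a3 is chr11:120948817-120949116 on the plus strand.
Pfkfb3, first start: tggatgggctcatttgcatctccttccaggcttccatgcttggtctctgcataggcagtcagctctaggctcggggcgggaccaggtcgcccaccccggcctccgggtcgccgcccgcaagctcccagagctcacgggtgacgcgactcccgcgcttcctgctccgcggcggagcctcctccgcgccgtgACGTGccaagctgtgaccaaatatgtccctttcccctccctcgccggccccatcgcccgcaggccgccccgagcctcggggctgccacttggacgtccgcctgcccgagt
Pfkfb3, second start: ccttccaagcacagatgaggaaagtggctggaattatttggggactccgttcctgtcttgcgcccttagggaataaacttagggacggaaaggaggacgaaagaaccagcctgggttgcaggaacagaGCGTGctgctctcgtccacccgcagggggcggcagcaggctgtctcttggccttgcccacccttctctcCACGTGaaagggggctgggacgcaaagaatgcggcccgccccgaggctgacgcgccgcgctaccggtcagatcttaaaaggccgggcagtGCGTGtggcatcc
Slc16a3: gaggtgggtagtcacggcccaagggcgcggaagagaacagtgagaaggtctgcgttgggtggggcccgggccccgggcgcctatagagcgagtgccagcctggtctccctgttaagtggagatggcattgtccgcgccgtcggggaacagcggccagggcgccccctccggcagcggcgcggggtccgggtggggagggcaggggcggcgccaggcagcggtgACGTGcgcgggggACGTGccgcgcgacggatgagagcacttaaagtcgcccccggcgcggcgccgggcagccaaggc
The first window of Pfkfb3 holds 1 match to ACGTG. Its second window holds 2 matches to GCGTG and 2 to ACGTG, the last 2 being both strands of a single CACGTG, the E-box. Slc16a3 holds 2 matches to ACGTG. Of 32851 promoter windows of this length in the RefSeq table, 19.6% hold ACGTG, 32.4% GCGTG and 7.15% CACGTG. RefSeq windows matched 38 of the 39 genes, 58 windows in all, of which 41.4% hold ACGTG, 55.2% GCGTG and 10.3% CACGTG. The forkhead motif GTAAACA occurs in 1 of these 58 windows, that of Aldoc, and in 3.65% of all windows. The glucocorticoid receptor palindrome occurs in 0 of them and in 3 of all windows. A match describes the letters only.

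**Figure D3:**
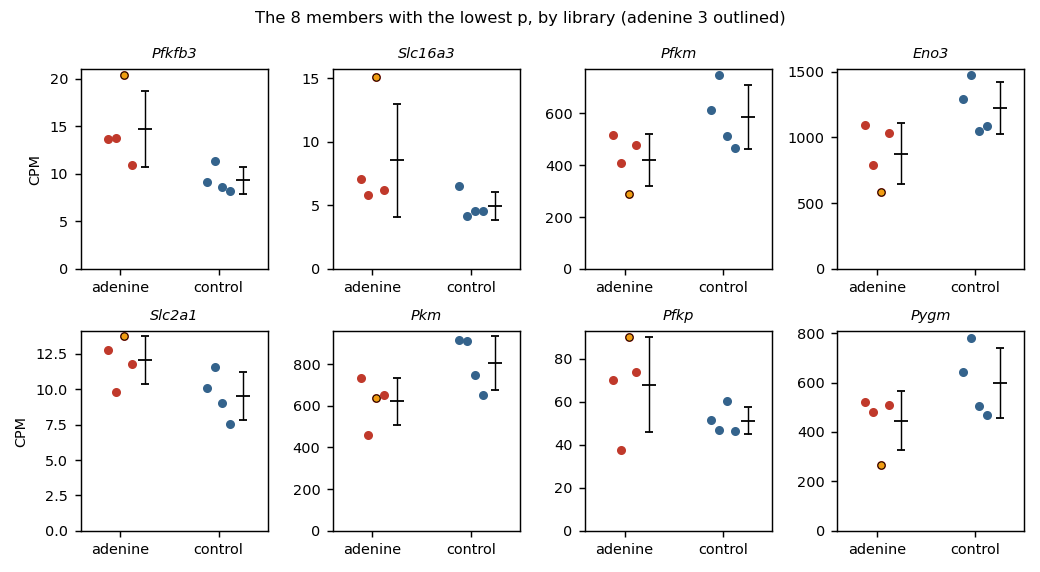
CPM in each library for the 8 members with the lowest p in edgeR, adenine libraries left of controls, with the mean and SD (n = 4) beside each group and adenine 3 in orange with a dark outline. In Pfkfb3 and Slc16a3 adenine 3 is the highest of the 8 libraries, at 20.4 and 15.1 CPM, and in Pfkm, Eno3 and Pygm it is the lowest.

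The 10 genes of lower glycolysis, from aldolase to pyruvate kinase, include the most abundant members. Gapdh, the dehydrogenase often used as a reference gene, had 3599, 2012.5, 2654 and 3103 CPM in adenine 1 to 4, against 2983, 2686, 2851 and 2630 CPM in control 1 to 4. The adenine libraries spread to both sides of the controls, and the log2 fold change was 0.03 (SE 0.22, 95% interval -0.44 to 0.50). Aldoa, the muscle aldolase, had -0.01 (SE 0.20), Tpi1, the triose phosphate isomerase, -0.16 (SE 0.18), and Pgk1, the phosphoglycerate kinase, -0.05 (SE 0.24). Pgk1 reached 604 CPM in adenine 3, while adenine 1, 2 and 4 had 279 to 369 CPM, against 308 to 474.5 CPM in controls. Its log2 fold change without adenine 3 was -0.33.

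Eno3, the enolase of striated muscle, had 1096, 793, 583 and 1035 CPM in adenine 1 to 4, against 1295, 1473, 1046 and 1084 CPM in control 1 to 4. Only adenine 1 reached into the control range, with a log2 fold change of -0.48 (SE 0.23, 95% interval -0.97 to 0.01, adjusted p = 0.290), or -0.34 without adenine 3. Eno1, the enolase of most cells, had 123 ± 41.0 CPM in adenine and 117 ± 27.2 CPM in control libraries, with the highest value, 176 CPM, in adenine 3. Its log2 fold change was 0.07 (SE 0.24), and -0.16 without that library. The near-identical Eno1b had 0.598 to 0.649 times the counts of Eno1 in every library, so reads of the pair could not be assigned with certainty. Eno1 made up 4.73 ± 2.78% of Eno1 and Eno3 per kilobase in adenine and 2.99 ± 0.453% in control libraries, with 8.88% in adenine 3.

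Pkm, which encodes muscle and embryonic pyruvate kinase from alternative exons, had 733, 461, 639 and 650 CPM in adenine 1 to 4, against 914, 908.5, 748 and 652 CPM in control 1 to 4. Of the adenine libraries only adenine 1 lay inside the control range. Its log2 fold change was -0.38 (SE 0.20, 95% interval -0.80 to 0.05, adjusted p = 0.321), and -0.40 without adenine 3. The isoforms were not counted apart, and 15.3% of the gene's exon bases are shared with Gm49759 on the same strand. Pgam2, the muscle phosphoglycerate mutase, had 454.5 ± 151 CPM in adenine and 449 ± 25.8 CPM in control libraries, with 267 CPM in adenine 3. Pgam1, the mutase of most cells, had 73.1 ± 16.1 and 75.4 ± 13.9 CPM. Their log2 fold changes were 0.02 and -0.04, and 0.19 and -0.14 without adenine 3. Aldoc, the aldolase of brain, had 11 reads in its lowest library. Its level was 0.880, 2.02, 0.637 and 1.94 CPM in adenine and 0.935, 0.373, 0.857 and 0.956 CPM in control libraries, with a log2 fold change of 0.80 (SE 0.48, adjusted p = 0.360). Its high values were in adenine 2 and adenine 4, where the Olfr and Vmn genes summed to 2009 and 1226 CPM, compared with 653 to 730.3 CPM in adenine 1 and 3 and 423 to 851 CPM in controls. The part of those reads in the Aldoc values was not tested.

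Lactate and pyruvate are interconverted by tetramers of Ldha and Ldhb, and cross the membrane through the monocarboxylate transporters MCT1 (Slc16a1) and MCT4 (Slc16a3). MCT1 is the main lactate importer of heart muscle, and MCT4 serves lactate export in strongly glycolytic cells. Slc16a3 (ENSMUSG00000025161, GRCm38 chromosome 11, 120948480 to 120960868) had 7.04, 5.81, 15.1 and 6.17 CPM in adenine 1 to 4, against 6.54, 4.13, 4.55 and 4.51 CPM in control 1 to 4. Adenine 3 was more than double every other library, and control 1 lay above adenine 2 and adenine 4. The log2 fold change was 0.80 (SE 0.30, 95% interval 0.15 to 1.45) with an unadjusted p of 0.0203 and an adjusted p of 0.262 in edgeR. Without adenine 3, the library with the high macrophage markers, it was 0.35 (adjusted p = 0.272). The part of the macrophage signal in Slc16a3 was not tested. Slc16a1 had 143 ± 20.9 CPM in adenine and 133 ± 37.5 CPM in control libraries (log2 fold change 0.10, SE 0.20, or -0.01 without adenine 3).

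Ldhb, the subunit that prevails in heart, had 959.5 ± 175 CPM in adenine and 1141 ± 184 CPM in control libraries, with a log2 fold change of -0.25 (SE 0.20, adjusted p = 0.467), or -0.14 without adenine 3. Ldha, the subunit that prevails in fast muscle and many other cells, had 633 ± 144 and 669.8 ± 110 CPM, with -0.08 (SE 0.20, adjusted p = 0.822). Ldha took 24.0 ± 5.09% of the pair per kilobase in adenine and 21.8 ± 2.05% in control libraries (mean difference of the log2 ratio 0.16, exact permutation p = 0.486). Adenine 3 had the highest share of Ldha, 29.9%.

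In each of the 10 isozyme pairs except Aldoc over Aldoa and Hk1 over Hk2, the highest of the 8 ratios was in adenine 3. The log2 ratio of Eno1 to Eno3 was -1.73 there, -3.31 to -3.07 in adenine 1, 2 and 4 and -3.56 to -3.09 in controls. That of Pgam1 to Pgam2 was -1.64 in adenine 3, -3.02 to -2.79 in adenine 1, 2 and 4 and -2.89 to -2.22 in controls. That of Pfkp to Pfkm was -1.67 in adenine 3, -3.43 to -2.69 in adenine 1, 2 and 4 and -3.99 to -3.09 in controls. Apart from the glucose transporters, none of the pairs separated the diets, and the exact permutation p-values ran from 0.0857 for Pfkp over Pfkm to 1 for Pgam1 over Pgam2. These ratios moved in the library in which the macrophage sum and the collagen genes Col1a1 and Col1a2 were high. The cardiomyocyte sum was lowest there, and the part of cell types in the ratios was not tested.

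**Figure D4:**
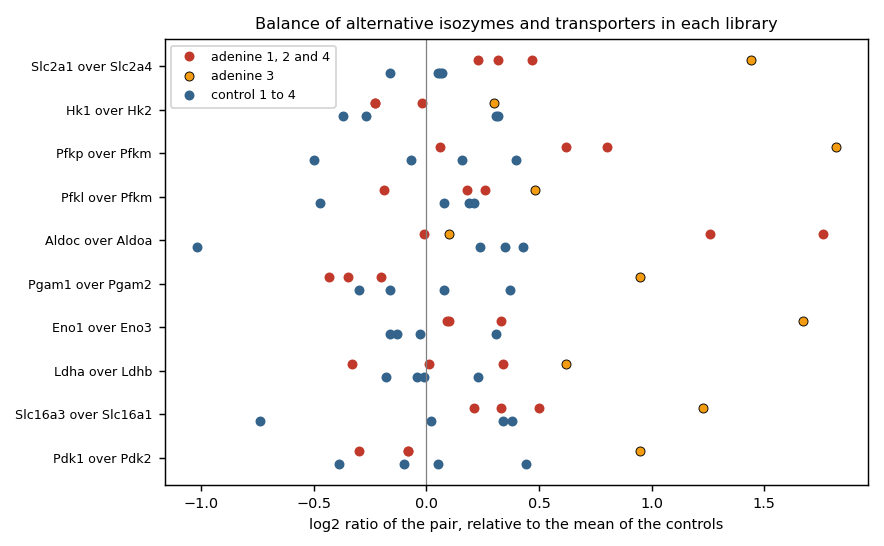
Log2 ratio of 2 isozymes or transporters in each library, relative to the mean of the 4 controls, for 10 pairs, with adenine libraries in red (adenine 3 in orange) above controls in blue. Adenine 3 is the rightmost of the 8 libraries in 8 of the 10 pairs, and Slc2a1 over Slc2a4 is the only pair whose diets do not overlap.

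The pyruvate dehydrogenase complex commits pyruvate to oxidation. Pdha1 and Pdhb encode its E1 subunits and Dlat its E2 subunit, and the kinases Pdk1, Pdk2 and Pdk3 switch it off by phosphorylation. All 6 log2 fold changes were below 0, from -0.47 to -0.09 with a median of -0.29, and 0 of the 6 passed (adjusted p = 0.340 to 0.906). With upper-quartile scaling Pdk3 had 0.04, and without adenine 3 it had -0.70, while Pdk2 moved to -0.15 in place of -0.31. All 8 cardiomyocyte markers and all 6 smooth muscle and pericyte markers also had log2 fold changes below 0. So did 5 of 6 endothelial, 5 of 7 fibroblast and all 5 matched red cell markers. Of 8 macrophage markers 6 were above 0, as were all 4 neutrophil and all 4 lymphocyte markers. None of these markers was called in edgeR, which called 0.0398% of all tested genes. Complete separation of adenine from control libraries was seen for 4 of 7 fibroblast, 3 of 6 endothelial and 4 of 5 red cell markers. It was also seen for 2 macrophage, 2 neutrophil and 1 lymphocyte marker. It was seen for 0 cardiomyocyte and 0 smooth muscle and pericyte markers, and for 7.29% of all tested genes. The part of these markers in the values of the 6 genes was not tested. The smooth muscle and pericyte markers summed to 469 to 789 CPM in adenine and 675 to 1049.5 CPM in control libraries, with none at 0. Pdha1 had 233, 248, 296 and 217 CPM in adenine 1 to 4, against 367, 531, 308 and 170.3 CPM in control 1 to 4. Control 4 was the lowest of the 8 libraries, and the other controls lay above all adenine libraries. The same order held for Pdhb and Dlat, whose adenine libraries had 325 to 357 and 182.5 to 202 CPM, against 295 to 575 and 173 to 281 CPM in controls. Their log2 fold changes were -0.47 (SE 0.27) for Pdha1, -0.35 (SE 0.20) for Pdhb and -0.27 (SE 0.17) for Dlat. The spread was narrow in adenine libraries, with 342 ± 15.1 CPM for Pdhb, against 436 ± 114.5 CPM in controls.

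Among the kinases, Pdk2 had 189.6 ± 49.5 CPM in adenine and 236 ± 44.9 CPM in control libraries, Pdk1 had 83.8 ± 7.64 and 99.9 ± 25.5 CPM, and Pdk3 had 3.39 ± 2.33 and 3.65 ± 1.41 CPM. Pdk2 was the main one of the 4 kinases per kilobase in every library except adenine 3, with 49.7 ± 12.8% in adenine and 56.0 ± 7.07% in control libraries. In adenine 3 Pdk2 had 31.8%, and Pdk4, the fourth kinase, had 55.4%. Pdk4 is not among the 39 genes and is known as a target of fatty acid and glucocorticoid signals. It had 40.2 ± 11.6% in adenine and 33.3 ± 7.27% in control libraries. It had 182, 98.3, 226 and 181 CPM in adenine and 115, 284, 169 and 95.7 CPM in control libraries, a spread within each diet larger than the difference between them (log2 fold change 0.05, SE 0.32).

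Glycogen is built by glycogen synthase (Gys1) and the branching enzyme (Gbe1), and degraded by the muscle phosphorylase (Pygm). Pygm had 521, 482, 268 and 509 CPM in adenine 1 to 4, against 641, 782, 506 and 469 CPM in control 1 to 4. Adenine 3 was the lowest library and control 2 the highest, while the other adenine libraries lay near control 3 and control 4. The log2 fold change was -0.43 (SE 0.24, adjusted p = 0.336), or -0.26 without adenine 3. Gys1 had 52.8 ± 7.91 CPM in adenine and 52.1 ± 8.04 CPM in control libraries, and Gbe1 40.7 ± 5.03 and 40.3 ± 9.55 CPM. Their 95% intervals were -0.33 to 0.36 and -0.37 to 0.40.

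The pentose phosphate pathway starts with G6pdx, the glucose 6-phosphate dehydrogenase, and Pgd, which each yield NADPH, and its carbon is rearranged by Tkt and Taldo1. The 4 genes had log2 fold changes of -0.06 (SE 0.21), 0.09 (SE 0.19), -0.01 (SE 0.15) and -0.17 (SE 0.16), in that order, and adjusted p-values of 0.535 to 0.987. G6pdx had 9.53 ± 2.50 CPM in adenine and 9.95 ± 2.06 CPM in control libraries, and its intervals allowed a log2 fold change from -0.52 to 0.40. Adenine 3 had the highest level of G6pdx and of Pgd, 13.2 and 46.1 CPM. Without it both log2 fold changes were below 0, at -0.27 and -0.08.

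The libraries themselves differed along the set of genes. Of the 39 genes, 16 (41.0%) were highest in control 2, where 22.1% of all tested genes were highest. The 4 atrial markers summed to 105 to 2183 CPM in adenine libraries, to 4856 CPM in control 2 and to 866 to 1088 CPM in control 1, 3 and 4. Control 2 also had the highest sum of 5 fat cell markers, 37.0 CPM, with 7.61 to 15.4 CPM in adenine libraries and 3.54 to 13.5 CPM in the remaining controls. Adenine 2 held the lowest value of 13 genes (33.3%), among them Gapdh, Ldha, Pkm and Tpi1, against 18.5% of all genes, and 35.8% of all genes were highest there. That library had the smallest total, the highest mitochondrial share of counts, 41.9%, and the lowest atrial sum, 105 CPM. Nppa made up most of the atrial sum in every adenine library, at 94.7 CPM in adenine 2 and 929.8 CPM in adenine 4. Myl4, Myl7 and Sln, the other atrial markers, were about as low in adenine 4. They had 6.85, 2.08 and 0.917 CPM in adenine 2 and 7.74, 2.80 and 1.27 CPM in adenine 4. Adenine 3 held the lowest value of 11 genes, most of them muscle forms such as Slc2a4, Pfkm, Pgam2, Eno3, Ldhb and Pygm, and the highest of 10, such as Pfkp, Eno1, Pgk1 and Slc16a3, that is 28.2% and 25.6% of the 39, against 18.7% and 13.8% of all genes. Control 4 held the lowest value of 9 (23.1%), among them Pdha1, Pdhb and Dlat, against 8.58% of all genes. The part of these library differences in the values of the genes was not tested. The TMM factors ran from 0.914 to 1.07 in adenine and from 0.871 to 1.09 in control libraries.

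Of 74 further genes of glucose metabolism, 73 were tested, and 0 were called in edgeR or in limma-voom. At an unadjusted p under 0.05 in edgeR, 4 were higher and 7 lower, where 10.9% of all tested genes were higher and 6.63% lower. In 3 of the 73 genes every adenine library lay on one side of every control, against 7.29% of all tested genes. Bpgm, which makes 2,3-bisphosphoglycerate, the effector that lowers the oxygen affinity of hemoglobin in red cells, had 18.4, 14.4, 20.7 and 13.7 CPM in adenine 1 to 4, against 90.4, 41.2, 38.1 and 33.9 CPM in control 1 to 4. All adenine libraries lay below all controls. The log2 fold change was -1.60 (SE 0.28, adjusted p = 0.0744), or -1.17 without control 1. Bpgm was called lower in DESeq2 (adjusted p = 0.000228), which called 1.43% of genes, 0.797% as lower, and in edgeR without adenine 3 (adjusted p = 0.0154), which called 0.322%, 0.144% as lower. The red cell markers, of which 5 of 6 symbols matched, summed to 1660 to 3085 CPM in adenine and 7008 to 26049 CPM in control libraries, with none at 0 and the highest sum in control 1. The part of the red cells in the value of Bpgm was not tested.

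The other genes whose libraries did not overlap were Ldhd, a D-lactate dehydrogenase of mitochondria, and Fbp1, the liver form of fructose bisphosphatase. Ldhd had 9.96, 13.6, 10.3 and 13.9 CPM in adenine 1 to 4, against 16.1, 23.0, 17.6 and 14.6 CPM in control 1 to 4, with a log2 fold change of -0.58 (SE 0.18, adjusted p = 0.228). Exons of Ldhd share 42.2% of their bases with Znrf1 on the opposite strand, and the strand setting of the counting is not given. Among the 39 genes such overlap was largest for Pdha1 (16.1%, with Map3k15), G6pdx (13.6%, with Ikbkg) and Gpi1 (11.5%, with Gm26762). Fbp1 was low throughout, at 0.680 to 1.71 CPM in adenine and 0.508 to 0.650 CPM in control libraries, with its highest values in adenine 2 and adenine 4, the libraries with the highest Olfr and Vmn sums (log2 fold change 1.05, SE 0.42, adjusted p = 0.268). Hkdc1, a hexokinase-like gene, had 1.96, 6.05, 1.62 and 3.55 CPM in adenine and 0.967, 0.881, 1.83 and 1.72 CPM in control libraries, and its high values were in the same libraries (log2 fold change 1.28, SE 0.44, adjusted p = 0.242). The part of the Olfr and Vmn reads in these values was not tested.

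Ppp1r3c, which targets the phosphatase that activates glycogen synthase to glycogen, had 51.5, 56.1, 70.6 and 88.0 CPM in adenine 1 to 4, against 100.4, 132, 134 and 78.4 CPM in control 1 to 4. Its log2 fold change was -0.74 (SE 0.21, adjusted p = 0.214), and adenine 4 lay above control 4. Pdp1, the phosphatase that switches pyruvate dehydrogenase back on, had 22.95, 19.3, 30.9 and 22.4 CPM in adenine and 38.7, 50.8, 35.2 and 25.2 CPM in control libraries. Adenine 3 reached above control 4, and the log2 fold change was -0.65 (SE 0.21, adjusted p = 0.231). Akr1b3, the aldose reductase of the polyol pathway, had 107 ± 7.63 CPM in adenine and 145 ± 23.2 CPM in control libraries, with -0.43 (SE 0.16, adjusted p = 0.249). None of the 3 passed in DESeq2 (adjusted p = 0.0678 to 0.152).

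**Figure D5:**
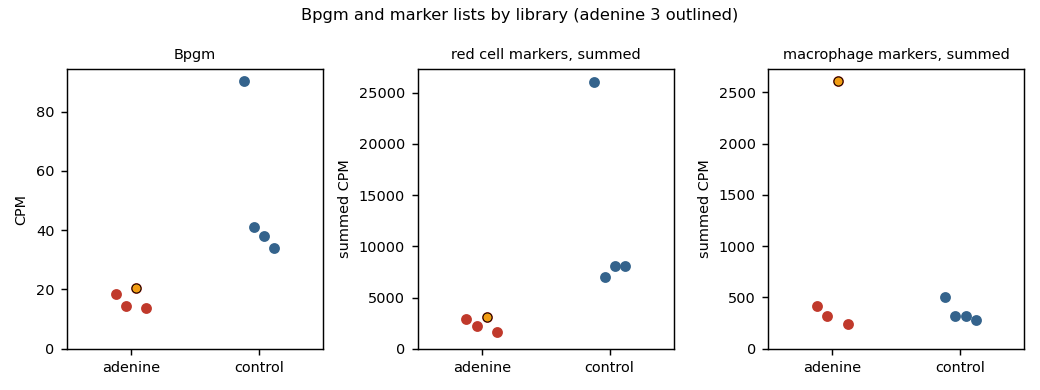
CPM of Bpgm and the summed CPM of red cell and macrophage markers in each library, adenine libraries left of controls, with adenine 3 in orange with a dark outline. Bpgm and the red cell sum are lower in all 4 adenine libraries than in all 4 controls, with control 1 highest in both, and the macrophage sum is high in adenine 3.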

How the data were processed

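RNA was isolated with peqGOLD TriFast and sequenced from NEBNext Ultra libraries, per the labels' protocols. FastQC 0.11.9, STAR 2.7.6a and the build GRCm38.p6 are named in the submitters' processing notes, while the program, annotation and strand setting of the counting are not given. The deposited values are raw read counts per gene, not scaled by the authors. Groups and replicate numbers came from the sample titles. The test was run with edgeR 4.0.16 under R 4.3.3: default low-count filter by group, TMM factors, quasi-likelihood F-test of the diet, standard errors from the F statistic, and Benjamini-Hochberg adjustment over 20093 genes, called under 0.05. The common biological coefficient of variation was 0.293. The fit was also run on counts simulated from its own fitted dispersions. That simulation held no outlying library such as adenine 3. CPM are counts over library size and TMM factor, given as mean ± SD. Coordinates, exon lengths and overlaps came from GENCODE M21 on GRCm38, where 27275 of 27304 identifiers matched.

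The members and lists were chosen with earlier results of these data known. Values in every library are given for members called or not overlapping, the 8 with the lowest p and pairs whose ratios did not overlap. Other glucose genes are named where called, not overlapping or among the 6 with the lowest p. Values of Gapdh, Pdha1, Aldoc and Pdk4 were given after they were seen. Alternatives were DESeq2 1.42.0, limma-voom (limma 3.58.1), other scalings, filters and thresholds, each library left out, and the replicate number as a block. Replicates of a group differed by more than sampling noise (chi-square per gene 20.0 to 93.7).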

Additional observations from a re-analysis of the deposited data

Results flagged for a closer look

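A library stood far from the other 3 of its diet, by Dixon's criterion at the 95% level, in 10 of the 112 sets of 4 values examined, where chance gives about 5 in 100. Adenine 3 had 15.1 CPM of Slc16a3, against 5.81 to 7.04 CPM in adenine 1, 2 and 4, and 268 CPM of Pygm, against 482 to 521 CPM. In the same library the log2 ratio of Pgam1 to Pgam2 was -1.64, against -3.02 to -2.79, and that of Eno1 to Eno3 was -1.73, against -3.31 to -3.07. Control 2 had 0.373 CPM of Aldoc, against 0.857 to 0.956 CPM in the other controls, a log2 ratio of Aldoc to Aldoa of -12.5, against -11.2 to -11.0, and 39.2 CPM of Tkt, against 27.8 to 28.9 CPM. Control 4 had 488 CPM of Pgam2, against 433 to 439 CPM, and a log2 ratio of Slc2a1 to Slc2a4 of -4.88, against -4.67 to -4.65. Control 1 had 90.4 CPM of Bpgm, against 33.9 to 41.2 CPM. The cause of these values was not tested.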

How the results depend on the processing

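None of the 39 genes was called under any alternative run, and their smallest adjusted p was 0.117 without adenine 3 and 0.124 to 0.490 elsewhere. The split of 14 above and 25 below 0 became 19 and 19 with a filter of 1 CPM and 9 and 30 in DESeq2. Over all genes, 8 calls became 19 with upper-quartile factors, 18 in robust edgeR, 32 with the replicate number as a block, 272 in DESeq2, 5 in limma-voom and 31 at an adjusted p under 0.1. Leaving out single libraries gave 1 to 67, with 1 call without control 1, control 3 or control 4, 3 without adenine 1, 5 without control 2, 10 without adenine 2, 27 without adenine 4 and 67 without adenine 3. Of the other glucose genes Bpgm was the 1 gene called, in DESeq2, at an adjusted p under 0.1, without adenine 3 (0 to 1 over the left-out libraries) and under the replicate block. Equal replicate numbers do not mark shared animals or days in the labels, and deviations of equally numbered libraries correlated at 0.086, -0.5, -0.16 and 0.3, so the block has no basis in the design. It gave Bpgm a log2 fold change of -1.50 (adjusted p = 0.0242).

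Small values turned sign under some alternatives, in 73 of 780 gene values, all from genes whose size was at most 0.15. With upper-quartile factors the log2 fold change was 0.01 for Hk1, 0.09 for Hk2, Pgk1 and Pgam1, 0.13 for Aldoa, 0.06 for Ldha, 0.04 for Pdk3, 0.08 for G6pdx and 0.14 for Tkt. With a filter of 1 CPM in 4 libraries, which removed Aldoc, it was 0.00 for Hk2, 0.05 for Aldoa, 0.03 for Pgk1 and Pgam1, 0.01 for G6pdx and 0.07 for Tkt. DESeq2 gave -0.03 for Pfkfb1 and Gapdh, -0.06 for Pgam2 and Gys1 and -0.05 for Gbe1, and DESeq2 size factors gave -0.01 for Pgam2 and -0.00 for Gys1. No filter gave -0.02 for Pgam2 and -0.01 for Gys1. limma-voom gave -0.01 for Gapdh, -0.05 for Pgam2 and 0.00 for Tkt, and the replicate block -0.00 for Gapdh, -0.05 for Pgam2 and 0.00 for Tkt. Over the left-out libraries the range was -0.18 to 0.05 for Hk2, -0.24 to 0.20 for Pfkfb1, -0.14 to 0.07 for Aldoa, -0.12 to 0.16 for Gapdh, -0.33 to 0.09 for Pgk1, -0.14 to 0.10 for Pgam1, -0.18 to 0.19 for Pgam2, -0.16 to 0.23 for Eno1, -0.24 to 0.03 for Ldha, -0.04 to 0.30 for Slc16a1, -0.70 to 0.17 for Pdk3, -0.08 to 0.11 for Gys1, -0.12 to 0.14 for Gbe1, -0.27 to 0.03 for G6pdx, -0.08 to 0.23 for Pgd and -0.08 to 0.13 for Tkt. Mean differences of isozyme ratios ran from -0.16 to 0.07 for Hk1 over Hk2, -0.33 to 0.13 for Pgam1 over Pgam2 and -0.15 to 0.27 for Pdk1 over Pdk2. The cause of these turns was not tested. Aldoc and Pdk3, whose SEs of 0.48 and 0.42 were the largest of the 39 genes, had 11 and 27 reads in their lowest library, and how far depth limits them was not tested.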
